A study of Mus musculus with 27 samples.

Results

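Histone deacetylases remove acetyl groups from lysines of histones and other proteins, and 10 mouse genes of this family were followed by gene name through RNA-seq libraries of iMEFs, immortalized fibroblasts from mouse embryos that carry a conditional knockout (cKO) of *Setdb1*: Hdac1, Hdac2, Hdac3, Hdac4, Hdac5, Hdac6, Hdac7, Hdac9, Hdac10 and Hdac11. They were 10 of 21683 genes with a value in every inhibitor library. Of the 10, 9 passed the filter on low values in the inhibitor and siRNA libraries and 8 in the total RNA libraries. Hdac9 did not reach it anywhere, and Hdac10 could not be followed in total RNA because its row was joined with that of its neighbour Tubgcp6 in all but 2 libraries. All values are FPKM (fragments per kilobase of transcript, scaled to sequencing depth), so levels of different genes are on a scale per length.

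The series holds 27 libraries in 3 experiments. In the inhibitor experiment (2 libraries a group, TruSeq RNA kit, no rRNA removal step named), cKO iMEFs were left untreated, were given 150 nM trichostatin A (TSA) for 24 h, were given 1 µM of the MEK inhibitor PD0325901 for 24 h, were harvested at day 6 after 4-hydroxytamoxifen (4OHT), or received both 4OHT and PD0325901. In the siRNA experiment (2 libraries a group, the same kit, day 6), the cells received control siRNA (siCtrl) or siRNA against Dnmt1 (siDnmt1), each with or without 4OHT. In the total RNA experiment (3 libraries a group, rRNA removed), untreated cells were set beside cells at day 5 after 4OHT and beside long-term KO cells cultured for more than 2 weeks after 4OHT. 4OHT induces the deletion of *Setdb1*, a histone H3 lysine 9 methyltransferase, and no cells with an intact *Setdb1* allele pair received it, so an effect of the compound and of the deletion cannot be told apart. TSA was given to cells without 4OHT, at a single dose and time, and the labels name no vehicle for the untreated cells. The study's methods describe a single recloned line, and nothing says that replicate libraries came from separate cultures, so p-values measure the spread between these libraries, which may be technical.

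The family falls into classes by sequence. Class I, to which Hdac1, Hdac2 and Hdac3 belong and also Hdac8, which is not among the 10 genes, is mainly nuclear: HDAC1 and HDAC2 are the catalytic subunits of the NuRD, Sin3 and CoREST complexes, and HDAC3 is that of the NCoR complex. Class IIa (Hdac4, Hdac5, Hdac7 and Hdac9) shuttles between nucleus and cytoplasm, is held in the cytoplasm by 14-3-3 proteins and binds MEF2 transcription factors. Class IIb holds HDAC6, a cytoplasmic tubulin deacetylase, and HDAC10, a polyamine deacetylase, and HDAC11 is the only class IV enzyme and removes long fatty acyl groups from lysine. TSA is a hydroxamic acid that chelates the zinc ion in the active site of class I and class II enzymes, so the comparison of TSA with untreated cells asks how transcripts of the drug's own target family stood after a day of inhibition.

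The promoters below are shown because Hdac11 and Hdac6 rose with TSA and fell at day 6 after 4OHT, Hdac2 rose with TSA and with PD0325901, and Hdac5 fell with 4OHT and with PD0325901 in the inhibitor experiment. The sequences are those of RefSeq on GRCm38.p6, 250 bases before to 50 bases after the annotated start, 5′ to 3′ on the strand of the gene. Capitals mark GC boxes, searched as GGGCGG on both strands.
Hdac11: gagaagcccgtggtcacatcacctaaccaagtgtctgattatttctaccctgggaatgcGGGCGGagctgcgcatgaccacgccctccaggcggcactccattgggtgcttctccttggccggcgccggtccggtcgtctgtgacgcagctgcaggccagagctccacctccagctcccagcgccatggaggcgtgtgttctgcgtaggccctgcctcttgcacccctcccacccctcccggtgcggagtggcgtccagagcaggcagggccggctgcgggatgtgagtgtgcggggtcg
Hdac6: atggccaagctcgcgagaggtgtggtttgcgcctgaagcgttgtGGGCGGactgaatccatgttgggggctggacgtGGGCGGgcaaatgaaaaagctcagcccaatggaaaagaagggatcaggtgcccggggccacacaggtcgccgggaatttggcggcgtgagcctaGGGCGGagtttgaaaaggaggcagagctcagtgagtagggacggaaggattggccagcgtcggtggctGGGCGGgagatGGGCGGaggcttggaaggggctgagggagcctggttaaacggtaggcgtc
Hdac2: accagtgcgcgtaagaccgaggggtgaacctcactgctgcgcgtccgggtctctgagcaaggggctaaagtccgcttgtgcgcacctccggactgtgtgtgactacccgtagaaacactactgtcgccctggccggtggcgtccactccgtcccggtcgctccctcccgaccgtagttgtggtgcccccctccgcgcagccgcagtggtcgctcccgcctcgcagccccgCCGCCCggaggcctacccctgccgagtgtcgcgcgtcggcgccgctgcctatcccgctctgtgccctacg
Hdac5: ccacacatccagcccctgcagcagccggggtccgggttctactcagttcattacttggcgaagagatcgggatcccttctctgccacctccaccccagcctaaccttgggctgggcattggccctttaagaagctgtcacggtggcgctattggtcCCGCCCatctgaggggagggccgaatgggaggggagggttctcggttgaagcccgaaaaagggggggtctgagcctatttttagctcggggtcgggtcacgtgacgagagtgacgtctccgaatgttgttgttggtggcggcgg

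The Hdac11 promoter lies at chr6:91156565-91156864 (+ strand), that of Hdac6 at chrX:7947840-7948139 (- strand), that of Hdac2 at chr10:36974294-36974593 (+ strand) and that of Hdac5 at chr11:102230123-102230422 (- strand). The Hdac6 window held 5 GC boxes, with first bases at -206, -173, -79, -11 and 1 relative to the start. The windows of Hdac11 (-191), Hdac2 (-20) and Hdac5 (-94) held 1 each. A GC box was found in 35.7% of all 32851 promoter windows, so its presence in these 4 is a description. None of the 4 windows held the TATA box TATAAA, which occurred in 13.6% of all windows on either strand. The Hdac5 window held the E-box CACGTG, which occurred in 7.15%. Their GC content was 66.7% for Hdac11, 62.0% for Hdac6, 69.7% for Hdac2 and 60.7% for Hdac5, against a median of 52.7% over all windows. The CCAAT box (letters CCAAT) was in the Hdac11, Hdac6 and Hdac5 windows and in 37.4% of all. No GC box overlapped a match to another of these motifs. Windows of Hdac4, Hdac7 and Hdac9 were also matched, 7 members in all, and Hdac1, Hdac3 and Hdac10 were not.

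The depth implied by the deposited confidence intervals was 10900000 to 13000000 fragments in the inhibitor libraries, 13900000 to 15800000 fragments in the siRNA libraries and 36900000 to 41300000 fragments in the total RNA libraries. Pearson correlations across genes between libraries of 1 group were 0.918 to 0.974. The TSA libraries correlated with each other at 0.961 and with the other inhibitor libraries at 0.742 to 0.800, where those libraries correlated across groups at 0.897 to 0.948. Dnmt1 checked the siRNA labels: it stood at 80.5 and 73.4 FPKM with siCtrl and at 12.2 and 10.6 with siDnmt1. Setdb1 did not check the 4OHT labels. A value for the whole gene would also count exons that stay, and an exact 0 can be a failed estimate. Whether either applies was not tested. Setdb1 stood at 8.76 and 10.1 FPKM in untreated inhibitor libraries, at 0 and 5.30 at day 6 after 4OHT and at 0 and 0 with 4OHT + PD0325901. It stood at 7.40 and 6.48 with siCtrl against 7.58 and 5.00 with 4OHT + siCtrl. In total RNA it stood at 5.95, 5.53 and 5.16 FPKM in untreated cells and at 7.24, 7.32 and 6.96 in long-term KO, all of them above the untreated values. The file of the library labelled PD0325901 replicate 2 carries the name of another group in its header. In that library Oasl2, an interferon-induced gene, stood at 2.93 FPKM, against 1.86 in the other PD0325901 library and 270 and 324 with 4OHT + PD0325901.

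In untreated cells Hdac1, Hdac2 and Hdac3 were the most abundant members. In the untreated inhibitor libraries Hdac2 led with 107 and 99.3 FPKM, followed by Hdac1 with 69.7 and 67.6 and Hdac3 with 58.2 and 56.5. Together these 3 genes held 78.0% and 76.2% of the summed FPKM of all 10 members. Hdac5 followed with 22.4 and 23.7 FPKM, Hdac6 with 17.5 and 18, Hdac7 with 14.2 and 12.5 and Hdac10 with 6.09 and 8.44. Each of these neighbours in the order was apart from the next beyond the spread of its 2 libraries. Hdac4 (3.28 and 3.67 FPKM) and Hdac11 (2.81 and 3.37) overlapped, and Hdac9 was last with 0.0442 and 0.0779. The order of means in the siCtrl libraries was the same. With TSA the order became Hdac2, Hdac1, Hdac3, Hdac6, Hdac5 and Hdac11, with Hdac11 above Hdac10 and Hdac4, whose libraries overlapped.

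**Figure D1:**
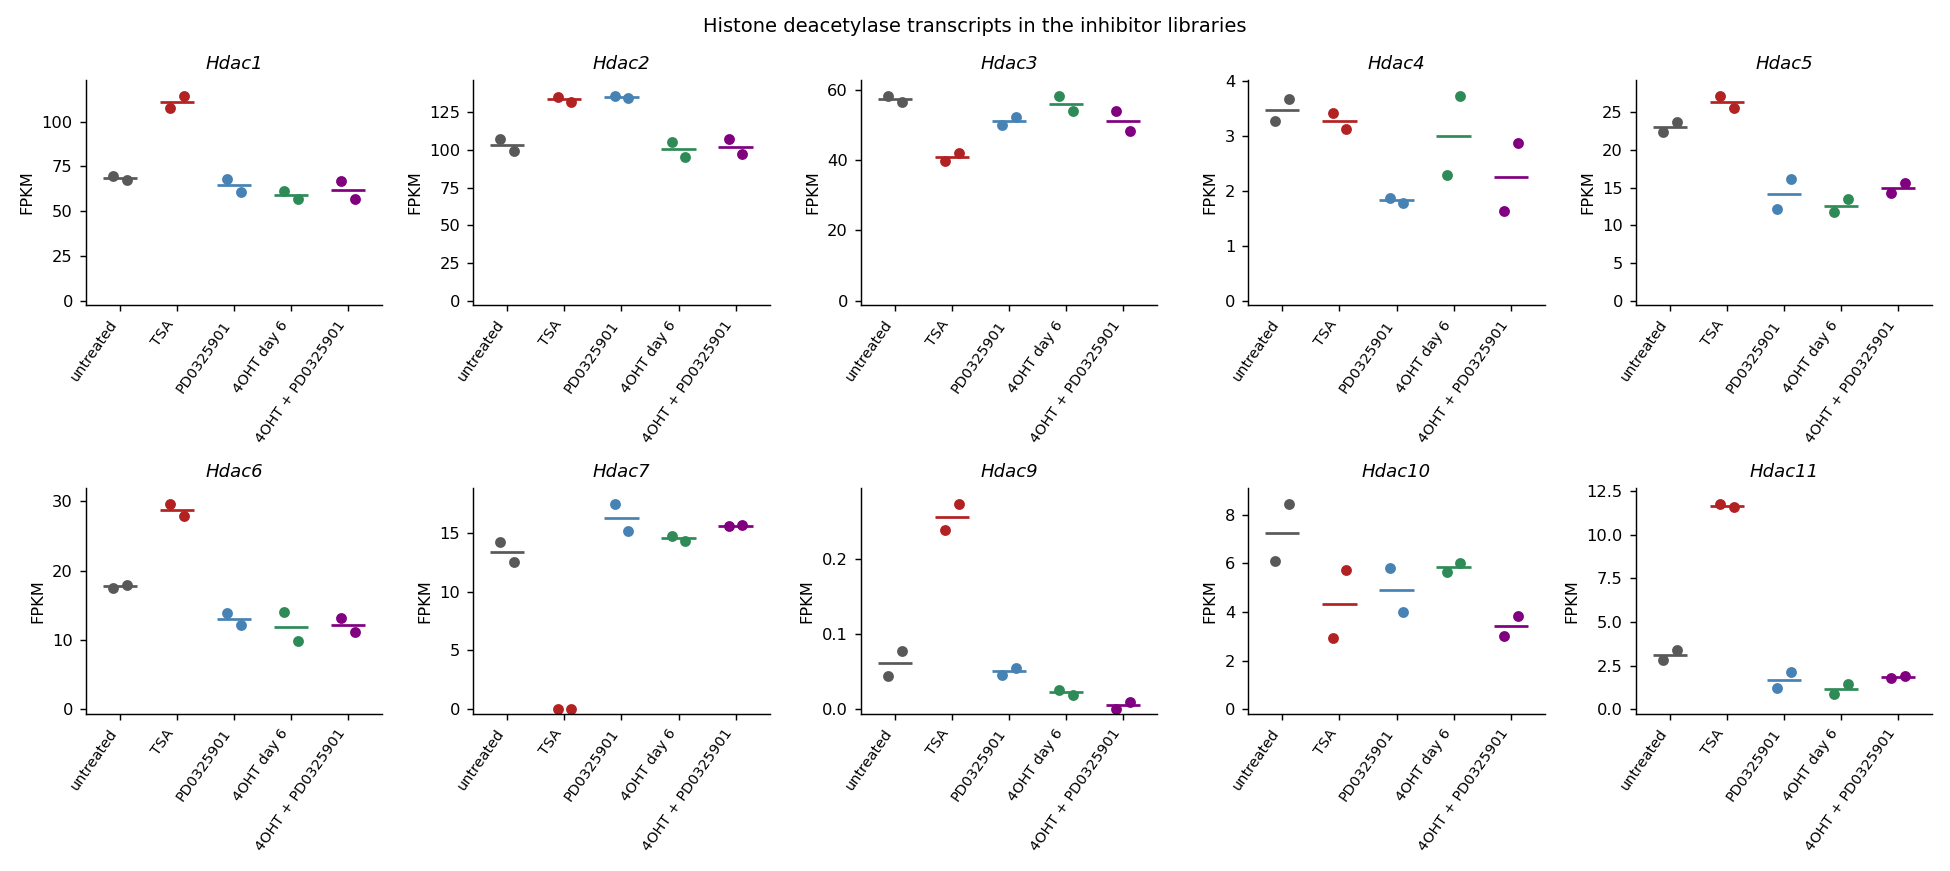
FPKM (vertical axes, linear, each with its own range) of the 10 genes in the 10 inhibitor libraries; each point is 1 library and each bar the mean of 2. Both TSA libraries lie above all others for Hdac1, Hdac5, Hdac6, Hdac9 and Hdac11 and below all others for Hdac3, and Hdac7 is listed at 0 in both. The share of all genes whose TSA libraries lie apart in this way was not counted, and 55.4% of all genes tested passed with TSA. Hdac5 did not pass and Hdac9 was not tested.

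With TSA, transcripts of 4 members rose (Hdac1, Hdac2, Hdac6 and Hdac11) and those of 1 fell (Hdac3). Hdac11 changed most, to 3.77 times its untreated mean, and Hdac1 and Hdac6 each rose to 1.62 times. Hdac4, Hdac5 and Hdac10 did not pass the test, Hdac7 was listed at 0 and Hdac9 was below the filter. In all, 5 of 8 members tested passed at an adjusted p under 0.05 (limma, two-sided, Benjamini-Hochberg over all genes), beside 55.4% of all 11183 genes tested. By direction, 30.8% of all genes rose and 24.6% fell. The median log2 fold change of the 8 members was 0.28 and that of all genes tested was 0.09. The members' share is thus close to that of all genes, and the result lies in the single values that follow.

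Among class I genes, Hdac1 stood at 69.7 and 67.6 FPKM in untreated libraries and at 108 and 114 FPKM with TSA. The groups did not overlap, and no other inhibitor library exceeded 69.7. On the log2(FPKM + 0.1) scale, on which all fold changes here are given and which understates changes of low genes, Hdac1 rose by 0.69 ± 0.11 (SE; adjusted p = 0.00115). Hdac2, the other NuRD and Sin3 deacetylase, went from 107 and 99.3 FPKM to 135 and 132, a change of 0.37 ± 0.09 (adjusted p = 0.0115). The PD0325901 libraries, at 136 and 134 FPKM, stood as high for Hdac2 as those with TSA. Hdac3, the NCoR deacetylase, moved the other way, from 58.2 and 56.5 FPKM to 39.7 and 42.0, the 2 lowest of the 10 libraries, and fell by 0.49 ± 0.09 (value -0.49; adjusted p = 0.00287). The summed level of Hdac1, Hdac2 and Hdac3 was 235 and 223 FPKM in untreated libraries and 282 and 288 FPKM with TSA. The fourth class I gene, Hdac8, is not in that sum and fell from 8.97 and 9.93 FPKM to 6.22 and 3.65 (-0.97 ± 0.31, adjusted p = 0.0295).

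Class IIa genes gave no passed test with TSA. Hdac5 stood at 22.4 and 23.7 FPKM without and at 27.1 and 25.5 FPKM with TSA, 0.19 ± 0.15 on the log2 scale (95% interval -0.16 to 0.54; adjusted p = 0.310). The groups did not overlap, and the deposited interval of the first TSA value ran from 0 to 146 FPKM, so that this library alone sets little. Hdac4 stood at 3.28 and 3.67 FPKM without and 3.43 and 3.13 with TSA, with overlapping groups, and a difference of -0.08 ± 0.32 (95% interval -0.82 to 0.65; adjusted p = 0.849).

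Hdac7, a class IIa enzyme, was listed at 0 FPKM in both TSA libraries and at 12.5 to 17.4 FPKM in the other 8 inhibitor libraries. An exact 0 in these files can be a failed estimate, and no fold change or test is given for it. Of 6736 genes with at least 5 FPKM in every other inhibitor library, 14 were listed at 0 in both TSA libraries, among them Mettl3, Ap3m1, Phax, Orc6 and Atf5, whereas in the untreated group it was 1 of 6363. In the annotation Hdac7 is overlapped on the other strand by Slc48a1 over 29 bases and by Gm17532 over 1277 bases, and whether the counting used strand is not given in the sources used here.

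Hdac9, the remaining class IIa gene, was near the floor everywhere. It stood at 0.0442 and 0.0779 FPKM in untreated libraries, at 0.239 and 0.273 with TSA, and at no more than 0.0779 in any other library of the series. Both TSA values lay above all others, and their deposited intervals were 0.101 to 0.377 and 0.130 to 0.416 FPKM. They rest on about 12 and 14.6 fragments, read back from those intervals, against 2.17 and 4.33 in the untreated libraries, and the gene was not tested.

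In class IIb, Hdac6 stood at 17.5 and 18 FPKM in untreated libraries and at 29.6 and 27.8 FPKM with TSA. Both TSA values were above all other inhibitor libraries, and the change was 0.69 ± 0.18 (adjusted p = 0.0122). Hdac10 stood at 6.09 and 8.44 FPKM without and at 2.94 and 5.72 FPKM with TSA. The higher TSA value lay just below the lower untreated one, and the difference of -0.79 ± 0.34 did not pass (95% interval -1.59 to 0.01; adjusted p = 0.0850). Hdac10 was also measured from few fragments, 6.36 to 116 a library in this experiment.

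Hdac11, the class IV gene, had the largest fold change with TSA among the 8 tested members, while Hdac1 had the smallest adjusted p. Hdac11 stood at 2.81 and 3.37 FPKM in untreated libraries and at 11.7 and 11.6 FPKM with TSA, against 0.868 to 2.10 FPKM in the other 6 inhibitor libraries. The change was 1.89 ± 0.32 (95% interval 1.15 to 2.63; adjusted p = 0.00163), the only one among the 8 tested members that reached 2-fold. Of all 11183 genes tested, 2053 rose and 1420 fell by at least 2-fold at an adjusted p under 0.05. The TSA values rest on 368 and 359 fragments read back from the deposited intervals. The antisense gene Gm14573 overlaps Hdac11 by 544 bases, and its reads cannot be set apart here without knowing the strand setting.

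When each of the 4 libraries was left out in turn, Hdac1, Hdac3 and Hdac11 passed every time with TSA, and the count of members passing was 3 to 5. It was 3 without untreated replicate 2 and without TSA replicate 1, where Hdac2 (adjusted p = 0.0934 and 0.0642) and Hdac6 (0.0508 and 0.0605) no longer passed. Hdac2 passed in 1 of the 4 fits and Hdac6 in 1, and with median-ratio scaling Hdac2 did not pass (adjusted p = 0.0679).

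**Figure D2:**
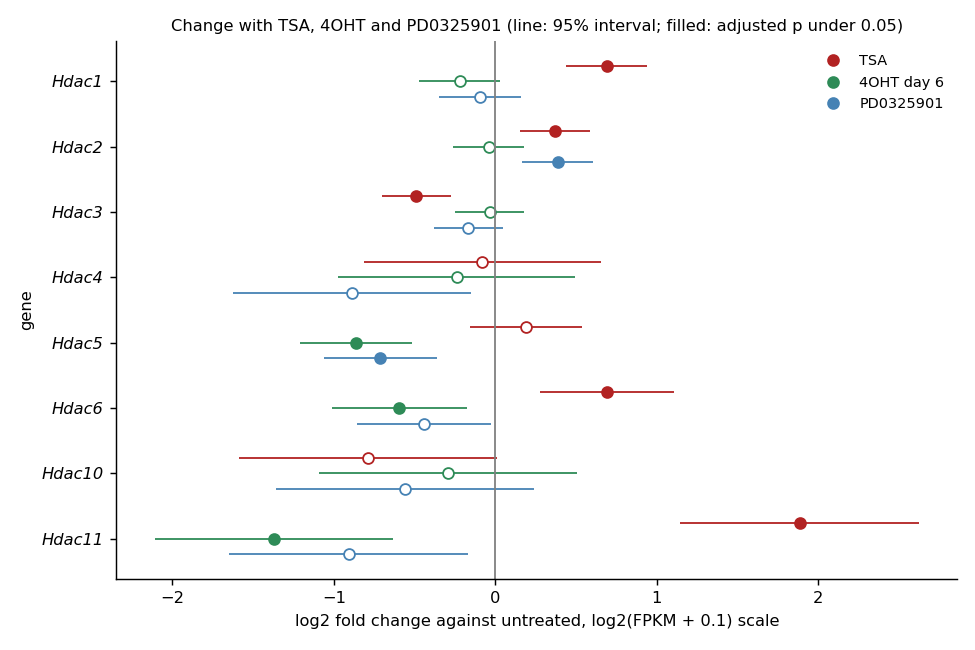
Log2 fold changes (horizontal axis, log2(FPKM + 0.1) scale) against the untreated inhibitor libraries for the 8 members that could be tested with TSA; points are limma estimates from 2 libraries a group, lines their 95% intervals, and filled points passed at an adjusted p under 0.05. Hdac11 and Hdac6 lie to the right of 0 with TSA (1.89 and 0.69) and to the left with 4OHT (-1.37 and -0.59); the 3 treatments share the same 2 untreated libraries.

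Genes known to respond to TSA were higher in the TSA libraries. Cdkn1a, encoding the cell cycle inhibitor p21, went from 23.2 and 23.0 FPKM to 63.3 and 71.9 (1.54 ± 0.16, adjusted p = 0.000145), Gsn, encoding the actin-severing protein gelsolin, rose by 0.97 (adjusted p = 0.00347) and H1f0, encoding linker histone H1.0, by 0.33 (adjusted p = 0.0483), so that 3 of 3 passed. With TSA 55.4% of all 11183 genes passed. All lists here were chosen with earlier results of these data known.

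Subunits of the complexes that carry the class I enzymes moved in both directions with TSA. Of 11 tested NuRD subunits, 5 fell, none rose and 6 did not pass (median log2 fold change -0.40, against 0.09 for all genes tested). Of all genes, 24.6% fell and 30.8% rose. Chd3, a chromatin remodelling ATPase, fell from 27.2 and 28.5 FPKM to 3.29 and 2.74 (-3.17 ± 0.16, adjusted p = 1.06e-05). Mta1 fell from 36.4 and 39.0 FPKM to 6.51 and 4.15 (-2.83), Mta3 by 1.75 and the methyl-CpG binding domain protein gene Mbd3 by 1.47 on the log2 scale. The core subunits Mta2 (72.5 and 70.2 FPKM without, 72.4 and 71.0 with TSA) and Rbbp4 did not pass, while the histone chaperone gene Rbbp7 fell from 179 and 176 FPKM to 124 and 95.3 (-0.71 ± 0.13, adjusted p = 0.00231).

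Of 11 tested Sin3 complex subunits, 6 rose, 1 fell and 4 did not pass, with a median log2 fold change of 0.46, where 30.8% of all genes rose and 24.6% fell. No list was tested against another. Sap30l went from 18.2 and 18.2 FPKM to 31.6 and 34.2 (0.85 ± 0.13, adjusted p = 0.000935), Sap130 rose by 0.83 and Sap30 by 0.82. The scaffold Sin3a rose by 0.62 (adjusted p = 0.00510), Sin3b was at 115 and 116 FPKM without and at 117 and 126 with TSA and did not pass, and Brms1l fell by 0.77.

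Of 6 CoREST subunits 3 fell, 1 rose and 2 did not pass, where 24.6% of all genes fell and 30.8% rose. Rcor2, a CoREST scaffold, fell by 1.48, Phf21a by 1.11 and Rcor3 by 0.76 on the log2 scale, and Hmg20b rose by 0.56. The demethylase gene Kdm1a, at 30.1 and 27.0 FPKM without and 24.9 and 24.6 with TSA, did not pass.

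Of 5 NCoR subunits, which work with HDAC3, 3 fell and none rose, where 24.6% of all genes fell and 30.8% rose. The corepressor gene Ncor1 went from 41.7 and 42.4 FPKM to 14.7 and 12.2 (-1.64 ± 0.32, adjusted p = 0.00332). The adaptors Tbl1xr1 and Tbl1x fell by 0.56 and 0.53, and Gps2 did not pass. Hdac3 itself fell in the same libraries, as given above.

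Among partners of the class IIa enzymes, 3 of 8 tested rose, 2 fell and 3 did not pass. Of all genes, 30.8% rose and 24.6% fell. All 5 that passed encode 14-3-3 proteins, as do most of the 8 tested. Ywhaq (0.64), Ywhab (0.54) and Ywhag (0.37) rose, and Ywhae (-0.96) and Ywhaz (-0.83) fell. Ywhae went from 432 and 431 FPKM to 240 and 205. The MEF2 genes Mef2a and Mef2d did not pass, nor did the 14-3-3 gene Ywhah (-0.09, adjusted p = 0.508).

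Genes that write histone acetylation were mostly lower with TSA. Of 10 histone acetyltransferases, 7 fell, 1 rose and 2 did not pass (median log2 fold change -0.90), where 24.6% of all genes fell and 30.8% rose. Kat2b, encoding PCAF, went from 11.8 and 11.4 FPKM to 3.29 and 2.55 (-1.97 ± 0.28), Crebbp fell by 1.47, Ep300 by 1.31 and Kat2a by 1.25. Hat1, which acetylates newly made histone H4, was the one that rose (0.35, adjusted p = 0.0145). Among sirtuins, the NAD-dependent deacetylases that TSA does not target, 3 of 5 tested fell and 1 rose. Sirt6 fell by 1.05, Sirt5 by 0.98 and Sirt1 by 0.74, and Sirt2 rose by 0.54.

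**Figure D3:**
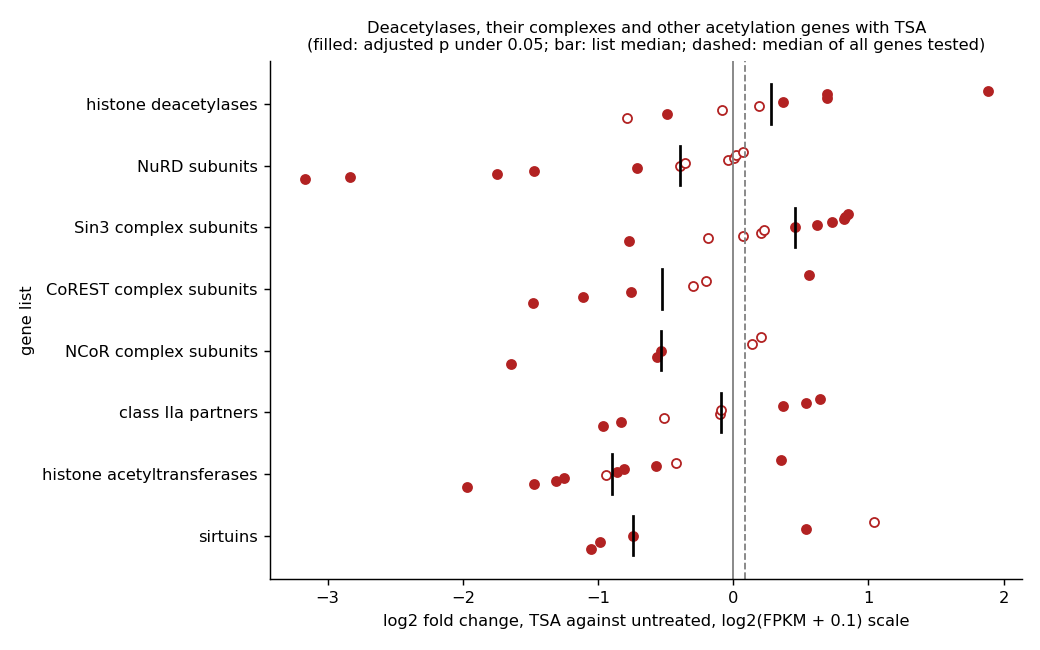
Log2 fold change with TSA against untreated (horizontal axis, log2(FPKM + 0.1) scale) for the tested genes of each list (vertical axis); each point is 1 gene from 2 libraries a group, filled where the adjusted p was under 0.05, and the bar is the list median. The medians of histone acetyltransferases (-0.90) and NuRD subunits (-0.40) lie below the dashed line at 0.09, the median of all genes tested, and that of Sin3 subunits (0.46) above it.

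Markers of the fibroblast and of other cell types moved in the same libraries. Of 6 fibroblast markers 4 fell with TSA (Col1a1 from 668 and 717 FPKM to 237 and 233, and Col1a2, Col3a1 and Pdgfrb) and 2 rose (Vim and Thy1). Of all genes, 24.6% fell and 30.8% rose. The summed level of the 6 was 2562 to 2792 FPKM without and 2717 to 2840 with TSA. Most of the sum with TSA was Vim, which went from 931 and 1085 FPKM to 2095 and 2202, so a similar sum hides the 4 falls. The summed level of 4 epithelial markers was 1.28 to 1.39 FPKM without and 31.3 to 32.4 with TSA, nearly all of it Epcam. That of 4 haematopoietic markers was 4.27 to 4.90 and 60.6 to 67.0 FPKM, nearly all of it Cd68, with Cd3e at 0. That of 3 neuronal markers was 3.81 to 3.84 and 39.3 to 53.3 FPKM, nearly all of it Map2, and that of 3 muscle markers was 0.0742 to 0.136 and 1.49 to 2.2 FPKM, with Myog at 0. The 2 pluripotency markers summed to 0.992 to 1.31 and 1.30 to 1.81 FPKM. Their part in the results for deacetylases was not tested. In bulk libraries, fewer cells with a transcript and less of it in each cell cannot be told apart.

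TSA libraries were also set against those at day 6 after 4OHT. Here 6 of 8 members tested passed, beside 60.0% of all 11242 genes. Hdac1, Hdac2, Hdac5, Hdac6 and Hdac11 were higher with TSA and Hdac3 was lower. Hdac11 stood at 11.7 and 11.6 FPKM with TSA and at 0.868 and 1.46 with 4OHT, a difference of 3.26 ± 0.32 (adjusted p = 0.000107). Hdac5 differed by 1.05 ± 0.15 (adjusted p = 0.000634) and Hdac6 by 1.29 ± 0.18 (adjusted p = 0.000574). The median of all genes in this comparison was 0.12 with the deposited scale and 0.01 after median-ratio scaling, and the same members passed with both.

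At day 6 after 4OHT, 3 members were lower than in the untreated libraries that the TSA comparison also uses, and none was higher. They were 3 of 9 tested, beside 24.9% of all 11186 genes. In the same comparison 4 of 6 fibroblast markers fell and 0 rose, and their part in these values was not tested. Hdac5 fell from 22.4 and 23.7 FPKM to 11.8 and 13.5 (-0.86 ± 0.15, adjusted p = 0.00705). Hdac6 fell from 17.5 and 18 FPKM to 14.0 and 9.81 (-0.59 ± 0.18, adjusted p = 0.0469). Hdac11 fell from 2.81 and 3.37 FPKM to 0.868 and 1.46 (-1.37 ± 0.32, adjusted p = 0.0197). The groups did not overlap for any of the 3, and the share of all genes without overlap was not counted. Same-numbered libraries of the PD0325901, 4OHT and 4OHT + PD0325901 groups deviated together from their group means (r = 0.21 to 0.25). Pairs with an untreated or TSA library did not (-0.02 to 0.04). Whether these sets were handled apart is not given, and such a difference cannot be told apart from treatment here. The same holds for PD0325901 against untreated and for TSA against 4OHT.

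Hdac1, Hdac2 and Hdac3 did not pass: Hdac1 stood at 61.2 and 56.7 FPKM after 4OHT (-0.22, 95% interval -0.47 to 0.03), Hdac2 at 105 and 95.5 (-0.04) and Hdac3 at 58.1 and 53.9 (-0.04). Without untreated replicate 1 only Hdac5 passed and without untreated replicate 2 no member did, so that Hdac6 and Hdac11 passed in neither. Without 4OHT replicate 1 Hdac11 did not pass (-1.03, adjusted p = 0.0879). Without 4OHT replicate 2, which had the lowest Hdac6 value, Hdac6 did not pass (-0.34, adjusted p = 0.194).

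With PD0325901, which blocks the MEK kinases of the ERK pathway, Hdac2 was higher and Hdac5 lower than in untreated cells. They were 2 of 9 members tested, beside 13.8% of all 11155 genes. Hdac2 went from 107 and 99.3 FPKM to 136 and 134 (0.39 ± 0.09, adjusted p = 0.0350), and Hdac5 from 22.4 and 23.7 to 12.2 and 16.1 (-0.71 ± 0.15, adjusted p = 0.0214). Hdac4 stood at 3.28 and 3.67 FPKM without and at 1.87 and 1.79 with PD0325901. The groups did not overlap, but the difference of -0.89 ± 0.32 did not pass (adjusted p = 0.110), and the deposited interval of the second value ran from 0 to 91.7 FPKM. Hdac11, at 1.20 and 2.10 FPKM with PD0325901, also did not pass (-0.91 ± 0.32, adjusted p = 0.105). Without either untreated library or without PD0325901 replicate 1 no member passed, and without PD0325901 replicate 2 only Hdac5 did.

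Added to 4OHT, PD0325901 gave no member that passed (0 of 9 by limma, beside 6.84% of all 11239 genes). No member had an unadjusted p under 0.05, where 2540 of all 11239 genes did. Hdac5 stood at 14.3 and 15.6 FPKM with both and at 11.8 and 13.5 with 4OHT alone, and Hdac2 at 107 and 97.0 with both and at 105 and 95.5 with 4OHT alone. Whether PD0325901 acted differently with and without 4OHT was tested as an interaction, which 0 of 9 members passed by limma, beside 0.613% of all 11092 genes. At an unadjusted p under 0.05 it was 3 of 9 (Hdac2, Hdac5 and Hdac11), beside 1748 of all 11092 genes. Hdac5 had the smallest p (log2 difference of differences 0.95 ± 0.21, adjusted p = 0.104), and without PD0325901 replicate 2 it passed.

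With siDnmt1, which lowered the maintenance DNA methyltransferase Dnmt1 to 0.148 times its siCtrl mean, 0 of 9 members passed by limma, beside 7.48% of all 10561 genes. At an unadjusted p under 0.05 it was 1 of 9, beside 2707 of all 10561 genes. That member was Hdac11, at 2.74 and 2.36 FPKM with siCtrl and 1.82 and 1.45 with siDnmt1 (-0.62 ± 0.23, adjusted p = 0.155). Hdac1 stood at 72.7 and 73.4 FPKM with siCtrl and at 61.2 and 60.1 with siDnmt1, with groups that did not overlap (-0.27 ± 0.15, adjusted p = 0.311). When the fit held only these 2 groups, 5 of 9 members passed (Hdac1, Hdac2, Hdac3, Hdac5 and Hdac6), beside 36.1% of all 10200 genes in that fit. The summed level of the 4 epithelial markers was 0.677 to 0.986 FPKM with siCtrl, 55.4 to 55.8 with siDnmt1 and 53.5 to 86.2 with 4OHT + siDnmt1. That of 6 fibroblast markers was 3503 to 3601 FPKM with siCtrl and 2753 to 2861 with siDnmt1. It was 1750 to 2318 with 4OHT + siCtrl and 1673 to 1878 with 4OHT + siDnmt1. The part of these markers in the values of the members was not tested.

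With 4OHT + siCtrl, Hdac11 alone passed, 1 of 9 beside 13.6% of all 10561 genes. It went from 2.74 and 2.36 FPKM to 1.23 and 1.34 (-0.94 ± 0.23, adjusted p = 0.0463), the same direction as at day 6 after 4OHT in the inhibitor experiment. Leaving out either siCtrl library or the first 4OHT + siCtrl library ended this call (adjusted p = 0.224, 0.192 and 0.0646). In place of Hdac11, Hdac2 and Hdac7 passed without 4OHT + siCtrl replicate 1, and Hdac6 passed beside Hdac11 without replicate 2. The 2 libraries of 4OHT + siCtrl differed from each other in several members: Hdac1 stood at 58.8 and 78.3 FPKM, Hdac5 at 19.2 and 26.1, Hdac6 at 11.4 and 17.1 and Hdac7 at 16.7 and 21.2.

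With 4OHT + siDnmt1, Hdac2 was lower than with siCtrl. It went from 122 and 126 FPKM to 68.7 and 86.3 (-0.69 ± 0.12, adjusted p = 0.00978), and was the 1 member of 9 that passed, beside 33.2% of all 10560 genes. Hdac3 (54.4 and 58.0 FPKM to 43.9 and 47.2, adjusted p = 0.0509) and Hdac11 (2.74 and 2.36 to 1.39 and 1.64, adjusted p = 0.0555) lay close to the threshold. Without either siCtrl library Hdac2 did not pass (adjusted p = 0.0574 and 0.0703). In the interaction of siDnmt1 and 4OHT 0 of 9 members passed by limma, beside 0.0570% of all 10529 genes. At an unadjusted p under 0.05 it was 1 of 9 (Hdac11, 0.84 ± 0.32, adjusted p = 0.472), beside 1021 of all 10529 genes.

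In the total RNA experiment the members kept close to their untreated levels at day 5 after 4OHT. Only Hdac5 passed, 1 of 8 tested beside 37.6% of all 8822 genes. It stood at 14.4, 14.1 and 14.2 FPKM in untreated libraries and at 15.5, 16.4 and 14.8 at day 5, a rise of 0.13 ± 0.04 (adjusted p = 0.0432), and the deposited interval of the first untreated value had its upper end at 12785 FPKM. Leaving out any untreated library, or day 5 replicate 1 or 2, ended this call (adjusted p = 0.0808 to 0.106). Hdac11 stood at 1.71, 1.73 and 1.19 FPKM without and at 1.74, 1.86 and 1.66 with 4OHT (0.19, 95% interval -0.15 to 0.53), and its groups overlapped.

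In long-term KO cells 4 members were higher and 1 was lower than in untreated cells, 5 of 8 tested beside 68.2% of all 8804 genes. Hdac3 stood at 48.2, 47.2 and 42.9 FPKM in untreated libraries and at 74.5, 76.8 and 73.1 in long-term KO (0.70 ± 0.06, adjusted p = 1.32e-05). With that it reached the level of Hdac2, which was at 69.7, 91.0 and 64.0 FPKM and overlapped its untreated values of 77.8, 79.8 and 76.1. Hdac7 went from 5.73, 6.57 and 6.38 FPKM to 10.1, 10.3 and 11.0 (0.74 ± 0.09, adjusted p = 0.000137), the largest log2 change of the 8.

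Hdac1 went from 19.2, 20.0 and 17.8 FPKM to 25.7, 25.2 and 23.7 (0.39 ± 0.07, adjusted p = 0.00176). Hdac5 went to 18, 17.8 and 17.5 FPKM (0.32 ± 0.04, adjusted p = 0.000212), and the deposited interval of the third of these values ran from 0 to 126 FPKM. Hdac6 fell from 14.2, 14.3 and 13.0 FPKM to 11.0, 11.0 and 10.7 (-0.34 ± 0.05, adjusted p = 0.000571). Groups did not overlap for any of these, and all stayed below 2-fold. The share of all genes without overlap was not counted. Hdac4 stood at 5.08 to 5.50 FPKM without and 4.81 to 5.19 in long-term KO and did not pass (-0.09, 95% interval -0.19 to 0.02).

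The same 5 members passed against day 5 after 4OHT, beside 66.6% of all 8810 genes. This comparison uses the same long-term KO libraries, so it is not a separate observation of them. Hdac3 was 0.77 ± 0.06 and Hdac7 0.58 ± 0.09 higher than at day 5 on the log2 scale, and Hdac6 was lower by 0.25 ± 0.05 (value -0.25). The 5 calls held with each library of either comparison left out, while Hdac1, Hdac3 and Hdac6 alone passed when the row had to share the gene's own start and end. The 3 neuronal markers summed to 2.33 to 2.69 FPKM in untreated and 7.37 to 7.90 FPKM in long-term KO libraries, with Rbfox3 at 0 in both groups. Pluripotency markers summed to 0.209 to 0.356 and 1.13 to 1.24 FPKM, and epithelial markers to 1.22 to 1.56 and 0.377 to 0.576. The 5 fibroblast markers with a value summed to 1550 to 1580 and 1656 to 1730 FPKM. Muscle and haematopoietic markers stayed under 1 FPKM in sum. The part of other cell types was not tested.

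**Figure D4:**
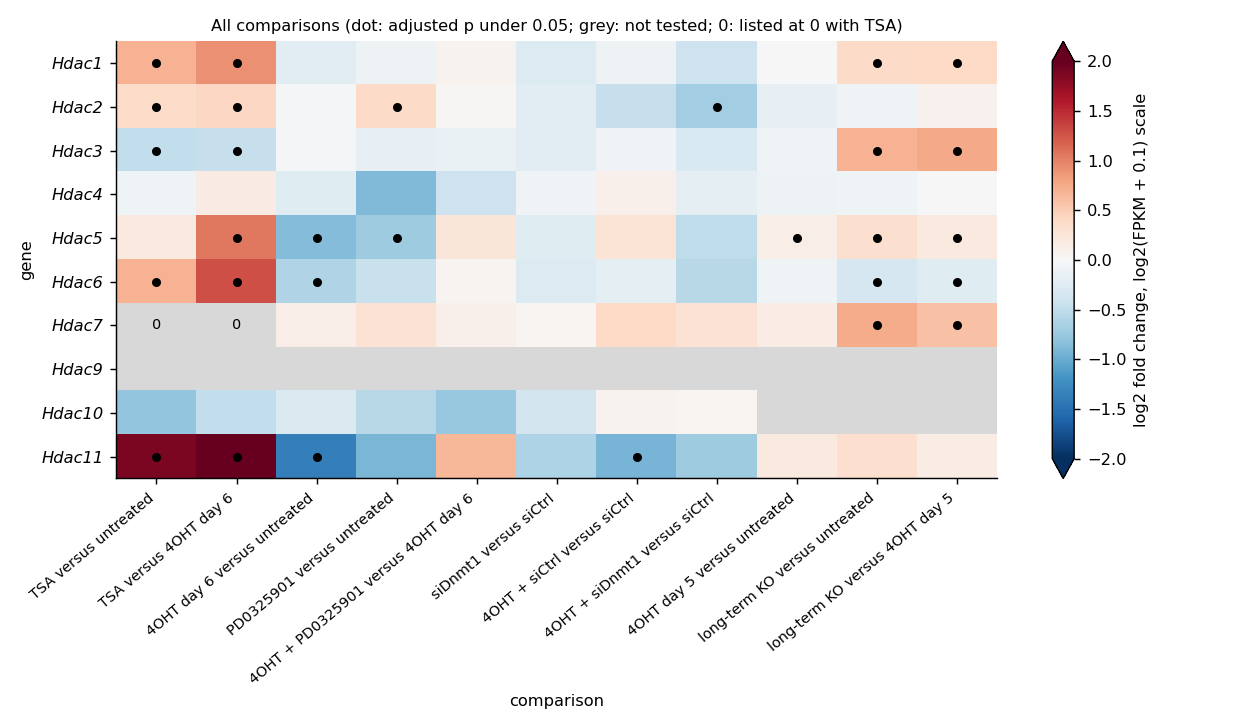
Log2 fold change (colour, log2(FPKM + 0.1) scale, capped at 2 in both directions) of each gene (rows) in the 11 comparisons (columns); dots mark an adjusted p under 0.05, grey cells were not tested and 0 marks Hdac7 listed at 0 with TSA. Hdac11 is the darkest row with TSA (1.89 against untreated) and after 4OHT in the inhibitor experiment (-1.37), and the long-term KO columns hold dots for Hdac1, Hdac3, Hdac5, Hdac6 and Hdac7.

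**Figure D5:**
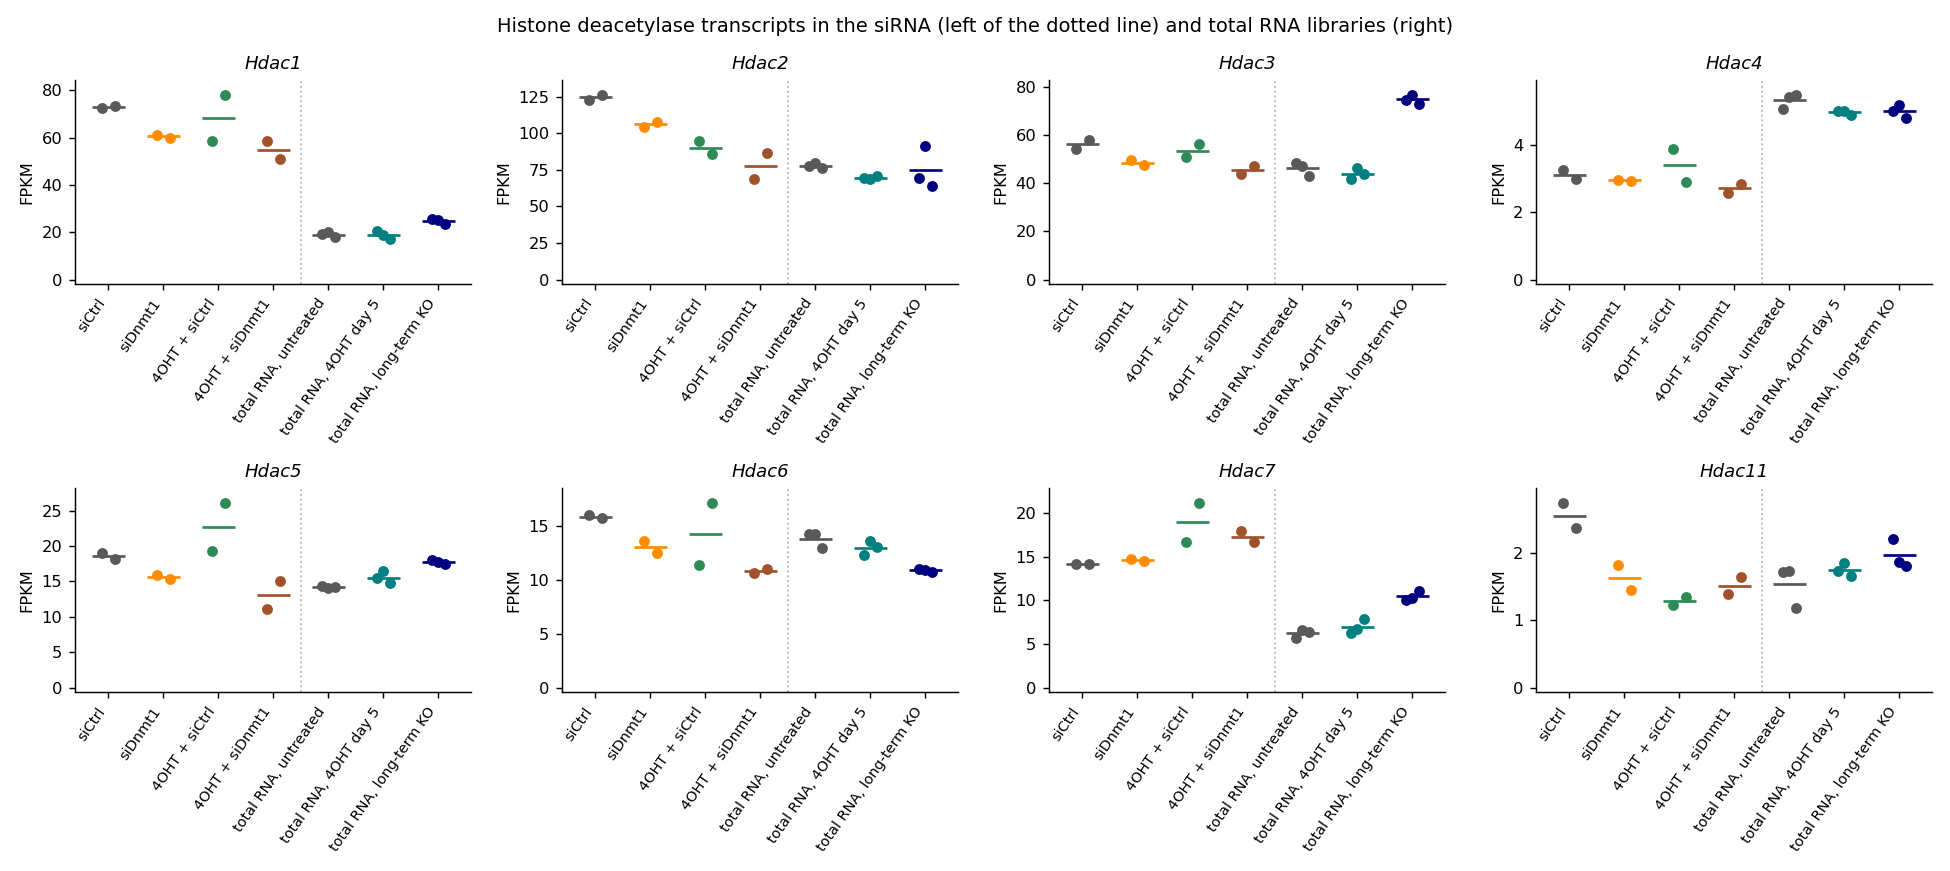
FPKM (vertical axes, linear, each with its own range) of 8 genes in the siRNA libraries (left of the dotted line, 2 a group) and total RNA libraries (right, 3 a group); points are libraries and bars group means, and levels on either side of the line come from different library types. Long-term KO values of Hdac3 (73.1 to 76.8) and Hdac7 (10.1 to 11.0) lie above all other total RNA libraries, and 4OHT + siCtrl libraries spread widely for Hdac1, Hdac5, Hdac6 and Hdac7.

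The order of levels in untreated total RNA differed from that in the inhibitor libraries, and since the values were made from different library types only the order is given. Hdac2 (76.1 to 79.8 FPKM) was followed by Hdac3 (42.9 to 48.2) and Hdac1 (17.8 to 20.0), whereas Hdac1 had stood above Hdac3 in the untreated inhibitor libraries. Hdac5 (14.1 to 14.4) and Hdac6 (13.0 to 14.3) overlapped, followed by Hdac7, Hdac4, Hdac11 and Hdac9. Hdac10 had a row of its own in 2 total RNA libraries, with 4.47 FPKM at day 5 and 5.88 in long-term KO.

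For each member the gene with the most similar profile was sought over the 18 siRNA and inhibitor libraries, each experiment centred on its own mean, among 10256 genes tested in both. As these are the highest of 10256 correlations and the TSA libraries weigh heavily in them, they are descriptions. Hdac6 was most like Uqcrh (Pearson r = 0.976, and 0.953 without the TSA libraries), Hdac1 most like Mdh1 (0.975 and 0.913) and Hdac11 most like Ccpg1 (0.961 and 0.834). Hdac5 was most like Cic (0.949 and 0.966), Hdac2 like Fn1 (0.948 and 0.941), Hdac3 like Eef1a1 (0.938 and 0.900), Hdac4 like Kntc1 (0.898 and 0.898) and Hdac10 like Per2 (0.797 and 0.817). Hdac7 was most like Phax (0.997), which is also listed at 0 in both TSA libraries, and without them r was 0.472.

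The 10 genes lie on 9 chromosomes by the GENCODE M1 annotation of NCBIM37 (mm9), the build of the files. Hdac1 is at chr4:129193348-129219957, Hdac2 at chr10:36694350-36721695, Hdac3 at chr18:38095498-38114642 and Hdac11 at chr6:91106659-91124686. Hdac5 is at chr11:102055746-102091480, Hdac6 at chrX:7507246-7525015 and Hdac9 at chr12:34732451-35213754. Hdac7 (chr15:97623095-97674933) and Hdac10 (chr15:88953733-88959130) share chromosome 15. Hdac4 is annotated as 2 adjoining entries, chr1:93825362-93827753 and chr1:93829334-94044970, and the FPKM row spans both. A value covers the exons of the whole gene, so changes between its transcripts cannot be read from it.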

How the data were processed

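Reads had been mapped by the authors to mm9 (TopHat2 2.0.12) and each library assembled with Cufflinks, per the labels and the study's methods. The deposited values are FPKM per locus with 95% confidence intervals. The authors' Cuffdiff tables (group FPKM, log2 fold changes, p-values) were not used. Rows were taken by gene name, and in total RNA files, which carry none, by a row covering at least 95% of the gene, and rows of 1 symbol were added up. The 3 experiments were modelled separately, each with all its groups, as log2(FPKM + 0.1) by limma (version 3.58.1, R 4.3.3) with trended variances and two-sided tests. Genes entered with 1 FPKM or more in 2 libraries (3 in total RNA), and passed at an adjusted p under 0.05. Genes listed at 0 in all libraries of a compared group were set apart from counts, a rule added after seeing the data. There were 11 comparisons and 2 interactions. The fit was tested on simulated data. Fragments behind a value were read back from its interval, and intervals cover estimation error only. An exact permutation test could reach no less than p = 0.333 with 2 libraries a group or 0.1 with 3, so none was run. Other steps used Python 3.11.15, numpy 2.4.6, pandas 2.3.3 and matplotlib 3.10.9.

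The members and the lists of partner and marker genes were chosen with earlier results of these data known. The genes named are all members, label checks, at most 4 per list that passed with TSA and had the largest changes, and the gene most like each member. Genes named as not passing, and Hdac8, Rbbp7, Sin3a, Ywhag, Hat1 and Oasl2, were chosen after their values were seen. Alternatives were other pseudocounts, filters, scalings, fits and locus rules, and leaving out each library. Some genes of the lists are not reported here.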

Additional observations from a re-analysis of the deposited data

Results flagged for a closer look

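Hdac5 moved in opposite directions after 4OHT in different experiments, with groups that did not overlap in any of them. Its mean FPKM at day 6 after 4OHT was 0.548 times the untreated mean in the inhibitor experiment, with control siRNA it was 1.22 times the siCtrl mean at the same day, and in total RNA at day 5 it was 1.09 times the untreated mean. The first passed the test (adjusted p = 0.00705), the second did not (adjusted p = 0.379) and the last did (adjusted p = 0.0432), a call lost when any 1 of 5 libraries was left out. The difference between experiments was not tested, and the experiments differ in transfection, library type and day. The share of all genes without overlap was not counted. Some Hdac5 values also have very wide deposited intervals. The fewest fragments read back for Hdac5 in a library were 0.0796 in the siRNA and 5.07e-06 in the total RNA experiment, against medians of 446 and 1234. No group held 4 or more libraries, so no single library was checked against its group in this way.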

How the results depend on the processing

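The 32 log2 fold changes of single members that were refitted, namely the 8 tested with TSA and those that passed in other comparisons, kept their direction under every alternative that gave a value, and small differences that did not pass in other comparisons were not followed. With a change of at least 2-fold also required, members passing were 1 with TSA (Hdac11), 3 for TSA against 4OHT, 1 at day 6 after 4OHT (Hdac11) and 0 in all other comparisons. Among all genes, 2053 were then higher and 1420 lower of 11183 with TSA, and 2406 and 1557 of 11242 for TSA against 4OHT. At day 6 after 4OHT it was 520 and 684 of 11186. Where no member passed, it ranged from 175 and 117 of 8822 (day 5) to 839 and 729 of 10560 (4OHT + siDnmt1). With no filter on low values 1 passed at day 6 after 4OHT, 1 with PD0325901 and 0 with 4OHT + siCtrl, and with at least 5 FPKM 0 passed with 4OHT + siCtrl, since Hdac11 was then not tested. With 4OHT + siDnmt1 the count of 1 became 2 with a pseudocount of 1, 2 with a pseudocount of 0.01, 3 with median-ratio scaling and 2 with quantile normalization. Among all genes, 1638 were then higher and 1893 lower of 10689 with median-ratio scaling. With quantile normalization it was 1592 and 1809 of 10694. Median-ratio scaling gave 2 with 4OHT + siCtrl and 0 at day 5 after 4OHT, and quantile normalization 2 at day 5. Beside these, 572 were higher and 858 lower of all 10689 genes, 1494 and 2027 of 8855, and 1575 and 1746 of 8860. These counts under the 2 scalings include genes listed at 0. For the pseudocounts, the filters on low values and single left-out libraries, no count of all genes is given. With only the compared groups in the fit, 5 passed with siDnmt1 (36.1% of all genes), 0 with 4OHT + siCtrl (1.70%) and 4 with 4OHT + siDnmt1 (39.9%). With total RNA rows that share the gene's start and end, 0 passed at day 5 and 3 in each comparison of long-term KO, as fewer members had such a row. The causes of the other shifts were not tested. Among all genes passing, the share that was higher went from 43.2% as deposited to 53.2% with median-ratio scaling for PD0325901, from 39.1% to 52.6% for siDnmt1, from 52.6% to 40% for 4OHT + siCtrl and from 71.1% to 54.7% for the PD0325901 interaction. Leaving out 1 library at a time gave 3 to 5 members with TSA, 0 to 2 at day 6 after 4OHT, 0 to 1 with PD0325901, 0 to 1 in its interaction with 4OHT, 0 to 2 with 4OHT + siCtrl, 0 to 1 with 4OHT + siDnmt1 and 0 to 1 at day 5. Without TSA replicate 2 Hdac10 passed (-1.26, adjusted p = 0.0202). In a choice made after seeing the data, counting Hdac7's 0 gave 6 with TSA and 7 against 4OHT.

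With a replicate block, 0 members passed with 4OHT + siCtrl and 0 at day 5 after 4OHT, against 1 each without it, and no other count moved by over 1.5 times. Correlations of deviations from group means between same-numbered libraries were 0.21 to 0.25 over the 6 pairs among PD0325901, 4OHT and 4OHT + PD0325901, so that the numbers paired the libraries of these 3 groups although the labels name no shared batch, and -0.02 to 0.04 over the 14 inhibitor pairs with an untreated or TSA library. A replicate block within those 3 groups alone, added after seeing the data, left 0 members passing for 4OHT + PD0325901 against 4OHT, and with the block over all groups 0 passed there and 0 in the PD0325901 interaction. The correlations were -0.07 to 0.03 over 12 siRNA pairs and -0.04 to 0.11 over 9 total RNA pairs. Of inhibitor, siRNA and total RNA libraries, 10 of 10, 0 of 8 and 6 of 9 correlated best with their own number. With 2 libraries a group the deviations mirror each other, so pairs of both numbers give the same value and are not separate observations. For untreated and TSA libraries the highest own-number values were only 0.036 and 0.028. By the median of fragments read back, depth limits Hdac9 (at most 14.6 fragments a library), Hdac10 and Hdac11 most. Wide intervals in single libraries limit Hdac4 and Hdac5 too. Their lowest values in the inhibitor libraries were 0.00158 and 0.208 fragments, against 28 for Hdac11.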
